A study of Mus musculus with 10 samples.

Results

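The genes described here encode the oxytocin receptor and proteins that handle calcium and cyclic GMP downstream of receptors of its kind. The set was chosen by name and comprised Oxtr, Ednrb, Cacna1c, Cacna1h, Cacna2d1, Itpr1, Prkg1 and Pde5a. Each gene was read from the probe set that carried its symbol alone, and from the brightest where there were several. Of these 8 genes, 7 had such a probe set and all 7 passed the filter on dim signal, out of 19935 named genes in the table. Itpr1 was not analysed here. RNA came from mammary epithelial cells of virgin female mice aged 8 to 12 weeks, with Pygo2 SSKO mice and their control littermates housed together. The first group held 3 arrays of the stem and basal population (Lin-, CD29 high, CD24+) of Pygo2 SSKO mice, called SSKO basal here. The next group held 3 arrays of mature luminal cells (Lin-, CD29 low, CD24+, CD61-) of control mice. The last group held 4 arrays of the stem and basal population of control mice. The lineage antibodies marked cells to be left out by CD31, CD45 and TER119. The abbreviation SSKO, the targeted allele, the driver of its loss, the alleles of the controls and the number of animals behind each array are not given in the sources used here. Replicates are called biological in the labels, and the p-values speak of the variation among these arrays. Luminal cells of SSKO mice were not analysed here.

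The basal layer of the mammary gland contains myoepithelial cells, which contract to eject milk when oxytocin reaches them. Oxtr couples mainly to the Gq protein, which activates phospholipase C and releases calcium from internal stores through IP3 receptors such as Itpr1. Calcium also enters through voltage-gated channels, whose pore is an alpha1 subunit (Cacna1c in L-type channels, Cacna1h in T-type channels) and whose delivery to the membrane is aided by alpha2delta subunits such as Cacna2d1. Calcium bound to calmodulin activates myosin light chain kinase and so contraction. In smooth muscle the opposing arm is cyclic GMP, which activates the kinase Prkg1 and is broken down by Pde5a. Ednrb is a receptor for endothelins, peptides best known for their action on blood vessels.

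Promoter windows are shown to set genes that were lower in luminal cells (Oxtr, Ednrb, Cacna2d1) beside a gene that did not pass that test (Pde5a). The windows come from RefSeq on build GRCm38.p6 and run from 250 bases before to 50 bases after an annotated start. Of the 7 genes, 6 matched this table with 9 windows in all. Cacna1h was not among them. Capitals mark the E-box letters CANNTG.
Oxtr, chr6:112489776-112490075, minus strand: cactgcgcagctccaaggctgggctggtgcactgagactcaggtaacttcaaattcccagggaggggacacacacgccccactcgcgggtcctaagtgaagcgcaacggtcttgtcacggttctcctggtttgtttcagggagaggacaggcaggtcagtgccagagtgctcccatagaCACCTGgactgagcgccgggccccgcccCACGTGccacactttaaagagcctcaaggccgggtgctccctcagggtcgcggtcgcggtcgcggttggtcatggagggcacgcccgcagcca
Ednrb, chr14:103843652-103843951, minus strand: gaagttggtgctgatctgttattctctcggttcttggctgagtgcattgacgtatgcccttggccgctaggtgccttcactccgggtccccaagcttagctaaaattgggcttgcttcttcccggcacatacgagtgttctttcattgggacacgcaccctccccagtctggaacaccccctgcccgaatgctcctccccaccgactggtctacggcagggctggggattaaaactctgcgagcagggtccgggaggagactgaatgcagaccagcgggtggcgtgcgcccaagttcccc
Cacna2d1, chr5:15934441-15934740, plus strand: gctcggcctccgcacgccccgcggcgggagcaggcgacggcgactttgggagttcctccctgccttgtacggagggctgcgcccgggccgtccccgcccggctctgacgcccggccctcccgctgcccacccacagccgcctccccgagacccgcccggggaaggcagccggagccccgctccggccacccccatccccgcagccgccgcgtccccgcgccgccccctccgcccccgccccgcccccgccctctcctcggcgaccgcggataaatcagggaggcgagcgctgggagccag
Pde5a, chr3:122728908-122729207, plus strand: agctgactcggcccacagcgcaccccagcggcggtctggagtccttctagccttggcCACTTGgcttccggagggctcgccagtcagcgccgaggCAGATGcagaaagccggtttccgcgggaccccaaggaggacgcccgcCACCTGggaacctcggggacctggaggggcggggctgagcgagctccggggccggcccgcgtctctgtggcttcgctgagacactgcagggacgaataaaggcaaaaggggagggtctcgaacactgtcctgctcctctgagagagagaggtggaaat

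The Oxtr window held 2 E-boxes, CACCTG starting at position -71 and CACGTG starting at position -43, counted from the annotated start. The Pde5a window held 3, starting at positions -193, -155 and -108, while the Ednrb and Cacna2d1 windows held none. CANNTG, which reads as CANNTG on the other strand too, was present in 5 of the 9 windows, against 72.3% of all 32851 windows in the table. The letters CATTCC (bound by TEAD factors), the CArG box (bound by serum response factor) and TATAAA were searched on both strands and matched 0 of the 9 windows. They were present in 14.7%, 1.63% and 13.6% of all windows, in that order. GC content was 63.7% in the Oxtr window, 58.7% in the Ednrb window, 80.0% in the Cacna2d1 window and 66.3% in the Pde5a window. These matches are descriptions of letters and not of binding.

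Values below are log2(intensity + 16) of 1 probe set, and levels of different genes are not set against each other. Array medians lay between 205 and 228 intensity units, and the number of arrays limits the precision. Pygo2, the targeted gene, averaged 6.26 ± 0.63 in SSKO basal arrays, 8.31 ± 0.36 in luminal arrays and 8.60 ± 0.47 in control basal arrays (SD, n = 3, 3 and 4), and fell by 2.34 in SSKO against control basal arrays (limma adjusted p = 0.0441). That call was lost under 12 of the 22 alternative settings that gave Pygo2 a value, with differences from -2.76 to -1.79 over those 22. Luminal and control basal arrays differed in the direction of their labels. In luminal arrays, 16 of 16 basal and myoepithelial markers were lower and 13 of 13 measured mature luminal markers higher (limma, adjusted p under 0.05). SSKO basal arrays were not part of that comparison. Their basal marker means were 12.58 to 12.66, against 12.58 to 12.68 in control basal arrays. Their mature luminal marker means were 10.39 to 10.60, against 9.76 to 10.20. These markers do not speak of other cell types. Luminal array 3 had a mean basal marker value of 9.88, against 8.57 and 8.12 in luminal arrays 1 and 2. Endothelial marker means were 10.85, 8.19 and 9.95 in SSKO basal arrays 1 to 3, 8.53, 8.05 and 7.99 in luminal arrays 1 to 3, and 9.89, 8.33, 8.76 and 8.67 in control basal arrays 1 to 4. SSKO basal arrays 1 and 3 and control basal array 1 thus stood apart from the other basal arrays, and differences between SSKO and control basal arrays that moved without them are given both ways.

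Between the luminal and control basal cells, most of the set separated by far more than the spread of the arrays. Oxtr, Cacna1c, Cacna2d1, Prkg1 and Ednrb were all lower in luminal cells, by 7.98-fold for Ednrb up to 43.7-fold for Cacna2d1. Pde5a and Cacna1h did not pass the test. In counts, 5 of 7 genes fell, 0 rose and 2 were not called at a limma adjusted p under 0.05, where 19.7% of the 15815 genes tested were called lower, 24.6% higher and 44.3% in either direction. Luminal arrays lay wholly below control basal arrays for the same 5 genes, as they did for 20.5% of all genes. The median difference of the 7 genes was -3.99 on the log2 scale, against 0.07 for all genes tested. The filter on dim signal used the mean over all 10 arrays, 7 of them basal. Luminal means of Cacna1c, Cacna2d1, Prkg1 and Ednrb were under its limit of 6.74, so these genes passed through their basal signal. The set was also chosen with earlier results of these data known, so these counts and medians are descriptions. In bulk samples, fewer cells of a type and less RNA per cell cannot be told apart.

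Between the SSKO basal and control basal cells, the same arrays gave differences near or within the spread of the replicates. Of the 7 genes, 0 were called (limma, adjusted p under 0.05) and 1, Prkg1, had an unadjusted p under 0.05. Over all genes tested, 0.0379% were called and 3.03% had an unadjusted p under 0.05. The median difference was 0.05 for the 7 genes and 0.01 for all genes, and 4 of the 7 differences were above 0. The SSKO basal arrays lay wholly below the control basal arrays for 2 of the 7 genes, Cacna2d1 and Prkg1, where 4.46% of all genes did not overlap in either direction and 2.02% lay wholly below.

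**Figure D1:**
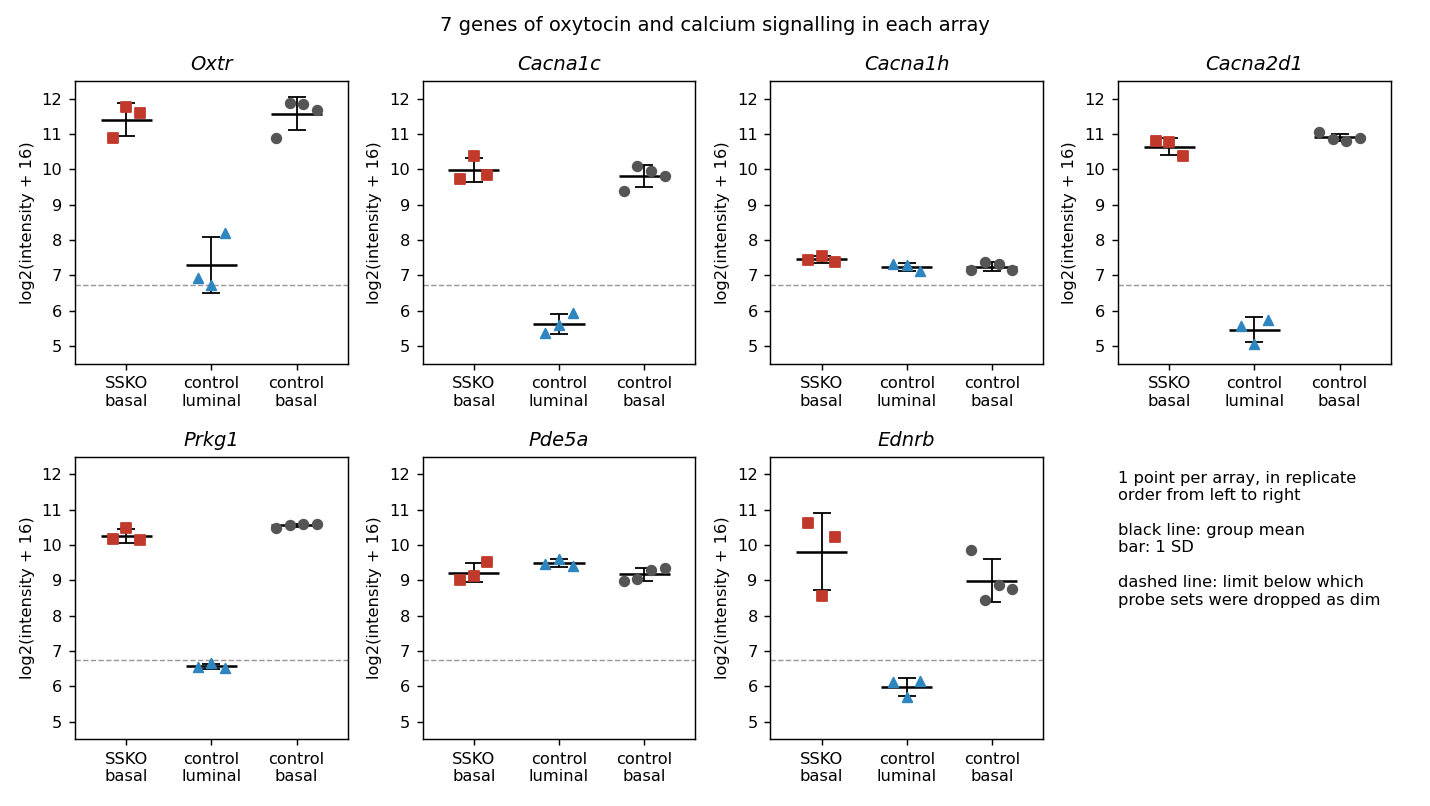
Each panel plots 1 gene as log2(intensity + 16), with 1 point per array, for the SSKO basal, control luminal and control basal groups. Black lines are group means, bars are 1 SD and the dashed line is the limit on mean signal under which a probe set counted as dim (6.74). The luminal points of Oxtr, Cacna1c, Cacna2d1, Prkg1 and Ednrb lie below all 7 basal points. Those of Cacna1h overlap the range of the control basal points, and those of Pde5a lie just above the control basal points.

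Oxtr, the receptor itself, was measured by probe set 10546829. Its values were 10.88, 11.75 and 11.58 in SSKO basal arrays 1 to 3, 6.94, 6.72 and 8.20 in luminal arrays 1 to 3, and 10.88, 11.87, 11.86 and 11.68 in control basal arrays 1 to 4. All 3 luminal arrays were far below every basal array, the SSKO and control basal arrays overlapped, and array 1 was the lowest of both basal groups. The means were 11.41 ± 0.46, 7.29 ± 0.80 and 11.57 ± 0.47 in SSKO basal, luminal and control basal arrays (SD). In luminal against control basal arrays Oxtr fell by 4.28 on the log2 scale (SE 0.367, 95% interval -5.09 to -3.47), a 19.5-fold lower value (limma adjusted p = 3.34e-06). Luminal array 3, the highest of its group for Oxtr, was also the highest for the basal markers, and without it the difference was -4.74. The part of residual basal cells in that array was not tested.

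In SSKO against control basal arrays the Oxtr difference was -0.17 (SE 0.367, 95% interval -0.97 to 0.64, limma adjusted p = 1). The interval holds changes of either sign. The sign turned to 0.15 with the endothelial marker mean as a covariate and to 0.098 without SSKO basal array 1, the difference was -0.047 without the 3 basal arrays of high endothelial signal, and no setting called it. The order of levels was therefore luminal lowest, with SSKO and control basal arrays not distinguished.

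Ednrb, the endothelin receptor, was measured by probe set 10422164 and varied most among basal arrays, over a range of 2.17 log2 units against 0.41 to 0.99 for the other 6 genes. It read 10.61, 8.57 and 10.24 in SSKO basal arrays 1 to 3, 6.13, 5.70 and 6.15 in luminal arrays 1 to 3, and 9.86, 8.45, 8.88 and 8.76 in control basal arrays 1 to 4. Its 3 highest values were those of the 3 basal arrays with the highest endothelial markers, and every luminal array was below every basal array. Means were 9.81 ± 1.09, 5.99 ± 0.26 and 8.99 ± 0.61 in the SSKO basal, luminal and control basal groups (SD). The fall in luminal against control basal arrays was -3.00 (SE 0.449, 95% interval -3.99 to -2.01, limma adjusted p = 0.000238). It was -2.41 with the endothelial marker mean as a covariate, where it was still called, and -2.71 without the 3 arrays. Of those 3, only control basal array 1 belongs to a group compared here.

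The SSKO against control basal difference of Ednrb was 0.82 (SE 0.449, 95% interval -0.17 to 1.81), with an unadjusted p of 0.0965 and a limma adjusted p of 1. It was 0.21 with the endothelial covariate and -0.13 without the 3 arrays, a fit that leaves 1 SSKO basal array and assumes that it varies like the other groups. Leaving out single arrays gave 0.41 without SSKO basal array 1 and 1.44 without SSKO basal array 2. Of the 12 endothelial markers, 0 were called between SSKO and control basal arrays (limma, adjusted p under 0.05). SSKO basal array 2 had the lowest mean of these markers among all basal arrays, at 8.19. All 12 of these markers had a difference above 0, and their median difference was 0.67. Their summed intensities ranged from 4335 to 25118 in SSKO basal, 4062 to 5771 in luminal and 4637 to 12954 in control basal arrays, and none was at 0. The part of endothelial RNA in the Ednrb values of those 3 arrays was not tested.

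In the 4 basal arrays with lower endothelial markers, Ednrb read 8.45 to 8.88, against 5.70 to 6.15 in the luminal arrays. Endothelial marker means of those 4 arrays were 8.19 to 8.76, against 7.99 to 8.53 in the luminal arrays. Ednrb is also known from melanocytes and glia. Of the 12 Schwann cell and melanocyte markers 6 were tested, and Cdh19, Tyr, Tyrp1 and Dct were too dim to be tested. Summed intensities of the 6 tested genes of that list were 3527 to 4749 in SSKO basal, 7768 to 9447 in luminal and 3332 to 4945 in control basal arrays. With Cdh19, Tyr, Tyrp1 and Dct left out, these sums do not measure the amount of such cells.

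**Figure D2:**
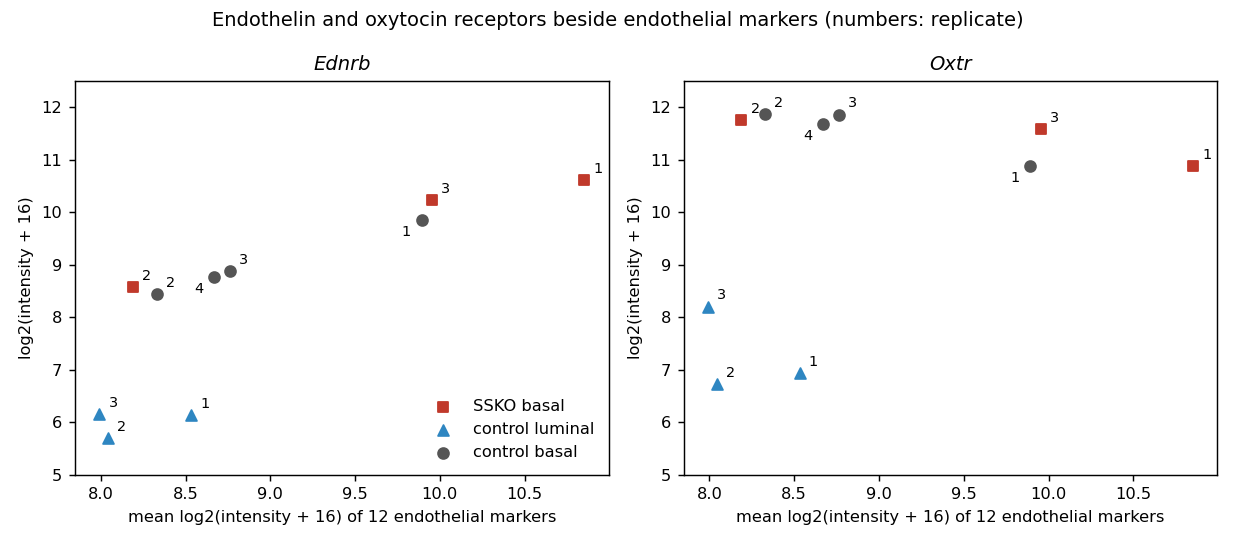
Ednrb and Oxtr (vertical axes, log2(intensity + 16)) are plotted against the mean of 12 endothelial markers (horizontal axes, same scale), 1 point per array with its replicate number, for SSKO basal, control luminal and control basal arrays. Ednrb is at 9.86 to 10.61 in the 3 basal arrays with the highest endothelial means and at 8.45 to 8.88 in the other 4. Oxtr is at 10.88 in SSKO basal array 1 and control basal array 1 and at 11.58 or above in the other basal arrays.

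Among the channel subunits, Cacna1c, the pore of the L-type channel (probe set 10547322), read 9.74, 10.37 and 9.85 in SSKO basal arrays, 5.37, 5.59 and 5.93 in luminal arrays and 9.38, 10.11, 9.96 and 9.80 in control basal arrays. The luminal arrays were all below the basal ones and the basal groups overlapped. Means were 9.98 ± 0.34, 5.63 ± 0.28 and 9.81 ± 0.31 (SD). Luminal arrays were lower by 18.1-fold than control basal arrays, a log2 difference of -4.18 (SE 0.213, 95% interval -4.65 to -3.71, limma adjusted p = 6.33e-08). The SSKO against control basal difference was 0.17 (SE 0.213, 95% interval -0.29 to 0.64), and it was -0.019 without SSKO basal array 2 and 0.42 without the 3 basal arrays of high endothelial signal.

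Cacna2d1, the alpha2delta subunit, had the largest luminal difference of the 7 genes. Its brighter probe set (10519855) read 10.80, 10.76 and 10.38 in SSKO basal arrays, 5.57, 5.06 and 5.74 in luminal arrays and 11.06, 10.87, 10.82 and 10.88 in control basal arrays. The luminal arrays were lowest by a wide margin, and the 3 SSKO basal arrays lay just under the 4 control basal arrays. The means of 10.65 ± 0.23, 5.46 ± 0.35 and 10.91 ± 0.10 (SD) gave a luminal against control basal difference of -5.45 (SE 0.172, 95% interval -5.83 to -5.07, limma adjusted p = 5.53e-09). The SSKO against control basal difference was -0.26 (SE 0.172, 95% interval -0.64 to 0.12, unadjusted p = 0.156). It was -0.13 without SSKO basal array 3 and -0.097 without the 3 basal arrays of high endothelial signal. The second probe set of the gene averaged 10.23 ± 0.35, 5.08 ± 0.13 and 10.55 ± 0.11 in the 3 groups in the same order, and there SSKO and control basal arrays overlapped, with 10.49 in SSKO basal array 1 against 10.42 in control basal array 3.

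Cacna1h, the pore of a T-type channel (probe set 10448925), was near the dim limit in all groups. It read 7.43, 7.56 and 7.37 in SSKO basal arrays, 7.31, 7.30 and 7.12 in luminal arrays and 7.14, 7.37, 7.33 and 7.15 in control basal arrays. Luminal and control basal arrays overlapped, and the SSKO basal arrays were above all luminal ones but not above all control basal ones. The luminal against control basal difference was -0.0051 (SE 0.115, 95% interval -0.26 to 0.25, limma adjusted p = 0.979), with a sign that turned under other scalings, among them 0.033 when arrays were centred on their medians. The SSKO against control basal difference was 0.20 (SE 0.115, 95% interval -0.05 to 0.46, unadjusted p = 0.106). Without the 3 basal arrays of high endothelial signal it was 0.27.

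In the cyclic GMP arm, the kinase Prkg1 (probe set 10467013) had the tightest replicates of the genes that fell in luminal cells. It read 10.17, 10.48 and 10.13 in SSKO basal arrays, 6.54, 6.66 and 6.53 in luminal arrays and 10.49, 10.55, 10.60 and 10.60 in control basal arrays. The 3 groups did not overlap, with luminal arrays lowest and SSKO basal arrays a little under control basal arrays. Means of 10.26 ± 0.19, 6.57 ± 0.07 and 10.56 ± 0.05 (SD) gave a luminal against control basal difference of -3.99 (SE 0.116, 95% interval -4.24 to -3.73, 15.9-fold lower, limma adjusted p = 5.39e-09). The SSKO against control basal difference was -0.30 (SE 0.116, 95% interval -0.56 to -0.04), with an unadjusted p of 0.0255 and a limma adjusted p of 1, so it did not pass the test. It was -0.11 without the 3 basal arrays of high endothelial signal.

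Pde5a, the enzyme that removes cyclic GMP (probe set 10495794), read 9.01, 9.13 and 9.53 in SSKO basal arrays, 9.46, 9.61 and 9.41 in luminal arrays and 8.97, 9.04, 9.31 and 9.36 in control basal arrays. The luminal arrays lay just above the control basal arrays, and the SSKO basal arrays overlapped both groups. Luminal arrays averaged 9.49 ± 0.11 and control basal arrays 9.17 ± 0.19 (SD), a difference of 0.33 (SE 0.154, 95% interval -0.01 to 0.66) with a limma adjusted p of 0.112. Over all genes, 25.8% had luminal arrays wholly above control basal arrays. The SSKO basal mean of 9.22 ± 0.27 (SD) differed from the control basal mean by 0.05 (SE 0.154, 95% interval -0.29 to 0.39), and the difference was -0.11 without the 3 basal arrays of high endothelial signal.

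**Figure D3:**
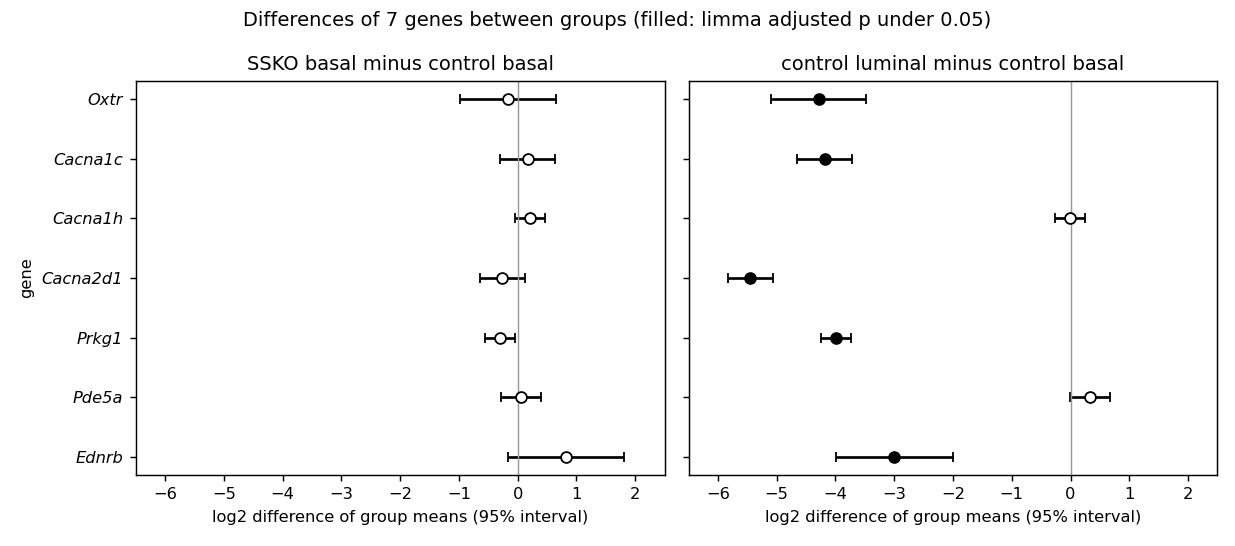
Log2 differences of group means are plotted with 95% intervals for 7 genes, SSKO basal minus control basal on the left and control luminal minus control basal on the right. Filled points passed a limma adjusted p under 0.05. On the left no point is filled, and on the right 5 points are filled, at differences from -5.45 to -3.00.

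The luminal means of Cacna1c, Cacna2d1, Prkg1 and Ednrb were under the dim limit of 6.74, so the full size of those differences is not known. With 1 or 64 in place of 16 added to the intensities, the luminal against control basal difference ranged from -6.06 to -4.41 for Cacna2d1, from -4.69 to -3.27 for Cacna1c, and from -3.34 to -2.32 for Ednrb, and each kept its call. Set against luminal arrays, SSKO basal arrays were higher for the same 5 genes, by 4.12 for Oxtr, 3.81 for Ednrb, 4.35 for Cacna1c, 5.19 for Cacna2d1 and 3.69 for Prkg1, where 19% of all genes were called higher (limma, adjusted p under 0.05). The Ednrb value became 2.57 without the 3 basal arrays of high endothelial signal and remained called. The SSKO basal arrays enter both of their comparisons and the luminal arrays enter 2 as well, so these values are not independent of those above. Markers of other cell types also differed between luminal and control basal arrays, where 19.7% of all genes were called lower and 24.6% higher. Of 9 pericyte and vascular smooth muscle markers tested, 6 were lower and 1 higher in luminal than in control basal arrays (limma, adjusted p under 0.05), with summed intensities of 5330 to 7492 in SSKO basal, 3035 to 3720 in luminal and 4857 to 6895 in control basal arrays. All 12 fibroblast markers were lower in luminal arrays, with sums of 13860 to 19585 in SSKO basal, 1849 to 7248 in luminal and 16535 to 32376 in control basal arrays. The part of such cells in the differences of Oxtr, Cacna1c, Cacna2d1, Prkg1 and Ednrb was not tested.

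The genes around the set were read from 5 pathway lists, of which 84 of 95 genes outside the set were tested. In luminal against control basal arrays, 30 fell, 14 rose and 40 were not called (limma, adjusted p under 0.05), with a median difference of -0.10. The filter on dim signal used all 10 arrays, 7 of them basal, so genes dim in luminal arrays could pass through their basal signal. These counts are therefore descriptions. Over all genes tested, 19.7% were called lower and 24.6% higher. In SSKO against control basal arrays 0 of 84 were called and 6 had an unadjusted p under 0.05, with a median difference of 0.03. The shares over all genes were 0.0379% called and 3.03% with an unadjusted p under 0.05 (limma). Counts and medians in the next paragraphs include the genes of the set, and the counts stand beside the same shares over all genes.

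Among receptors and Gq signalling, 8 of 20 genes tested fell and 4 rose in luminal cells, with a median of -0.01. Plcg1 and Plcd1, both phospholipases C, fell, with log2 differences of -1.81 (SE 0.178) for Plcg1 and -1.26 (SE 0.153) for Plcd1. Rgs2, which shortens Gq signalling, fell by 1.48 (SE 0.348). Plcb4, a phospholipase C that Gq activates, rose by 1.81 (SE 0.311, limma adjusted p = 0.00063). Named after their values were seen, the Gq subunit gene Gnaq was among those that fell and its relative Gna11 among those that rose. In SSKO against control basal arrays the vasopressin receptor Avpr2 had the smallest p of the list, at -0.31 (unadjusted p = 0.0427, limma adjusted p = 1), and it was -0.16 both without SSKO basal array 3 and without the 3 basal arrays of high endothelial signal.

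Of 20 voltage-gated channel subunits tested, 7 fell, 1 rose and 12 were not called, with a median of -0.02. The T-type pore Cacna1g fell by 4.59 (SE 0.179), unlike the T-type pore Cacna1h, which did not pass the test. The L-type pore Cacna1d, the beta subunit Cacnb4 and the gamma subunit Cacng7 fell too, with differences of -3.94 (SE 0.22), -3.73 (SE 0.293) and -2.24 (SE 0.277) in that order. Luminal means of Cacna1g, Cacna1d, Cacnb4 and Cacng7 were under the dim limit, so the sizes depend on the number added before taking logs. With 1 or 64 added, the difference ranged from -5.08 to -3.69 for Cacna1g, from -4.58 to -2.92 for Cacna1d, from -4.18 to -2.89 for Cacnb4 and from -2.44 to -1.79 for Cacng7, and each kept its call. Cacng4, named after its value was seen, rose by 0.38 (SE 0.125, limma adjusted p = 0.0293), a call that was lost with the replicate block (0.34, adjusted p = 0.098) and without each of 5 single arrays in turn. Cacng7 had the smallest p of this list in SSKO against control basal arrays, at -0.76 (unadjusted p = 0.0191, limma adjusted p = 1). Its difference was -0.49 without SSKO basal array 3 and -0.47 without the 3 basal arrays of high endothelial signal.

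Of 22 genes of store release, store-operated entry and calcium pumps, 5 fell, 7 rose and 10 were not called, with a median of -0.04. Casq2, which binds calcium inside stores, fell by 2.51 (SE 0.218). The sodium-calcium exchanger Slc8a1 fell by 2.47 (SE 0.219) and the channel Trpc1 fell by 2.01 (SE 0.159). These 3 luminal means were also under the dim limit, and with 1 or 64 added the difference ranged from -3.01 to -1.72 for Casq2, from -2.91 to -1.72 for Slc8a1 and from -2.26 to -1.51 for Trpc1, each still called. Among the genes that rose, and named after their values were seen, were the IP3 receptors Itpr2 by 0.79 (SE 0.161, limma adjusted p = 0.00193) and Itpr3 by 0.58 (SE 0.138), the entry channel Orai1 by 0.52 (SE 0.104) and the secretory pathway pump Atp2c2 by 1.61 (SE 0.375).

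The receptor-operated cation channel Trpc6 had the largest rise in luminal cells among the genes of these lists. It read 8.33, 8.00 and 8.56 in SSKO basal arrays, 11.45, 10.91 and 11.23 in luminal arrays and 7.15, 7.34, 7.34 and 7.09 in control basal arrays. The 3 groups did not overlap, with SSKO basal arrays between the other groups. The luminal against control basal difference was 3.97 (SE 0.167, limma adjusted p = 1.82e-08). The SSKO against control basal difference of 1.07 (SE 0.167) had an unadjusted p of 5.31e-05 and a limma adjusted p of 0.0934, and passed the threshold in 1 setting, without SSKO basal array 2 (1.21, adjusted p = 0.028). Without the 3 basal arrays of high endothelial signal it was 0.75 (adjusted p = 1). Mature luminal marker means were 10.39 to 10.60 in SSKO basal, 12.76 to 12.84 in luminal and 9.76 to 10.20 in control basal arrays, and the part of luminal cells in the Trpc6 values was not tested.

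Of 21 genes of nitric oxide and cyclic GMP, 12 fell, 2 rose and 7 were not called, with a median of -0.91. Subunits of soluble guanylate cyclase, which makes cyclic GMP, fell, with differences of -3.44 (SE 0.19) for Gucy1b1 and -2.11 (SE 0.261) for Gucy1a1. Mrvi1, a target of Prkg1 at the IP3 receptor, fell by 3.09 (SE 0.28) and the other cyclic GMP kinase Prkg2 fell by 2.16 (SE 0.276). All 4 luminal means were under the dim limit. With 1 or 64 added, the difference ranged from -4.42 to -2.24 for Gucy1b1, from -2.50 to -1.47 for Gucy1a1 and from -3.46 to -2.39 for Mrvi1, and Prkg2 gave -1.32 with 64 and was dropped as dim with 1. The genes that rose, named after their values were seen, were Pde9a and Pde6d. In SSKO against control basal arrays the natriuretic peptide receptor Npr3 had the smallest p of the list, at 0.47 (unadjusted p = 0.00247, limma adjusted p = 1). Its difference was 0.50 without the 3 basal arrays of high endothelial signal.

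Of 8 genes of the endothelin axis, 3 fell and 0 rose, with a median of -0.23. Besides Ednrb, Mme (CD10), a peptidase of the cell surface, fell by 2.69 (SE 0.164). Ecel1, a peptidase related to endothelin-converting enzymes, fell by 0.58 (SE 0.163, limma adjusted p = 0.0134), a call that was lost without luminal array 3 (adjusted p = 0.0574). In SSKO against control basal arrays the ligand gene Edn3 had the smallest p of the list, at 0.16 (unadjusted p = 0.277, limma adjusted p = 1), and it was 0.093 without control basal array 1.

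**Figure D4:**
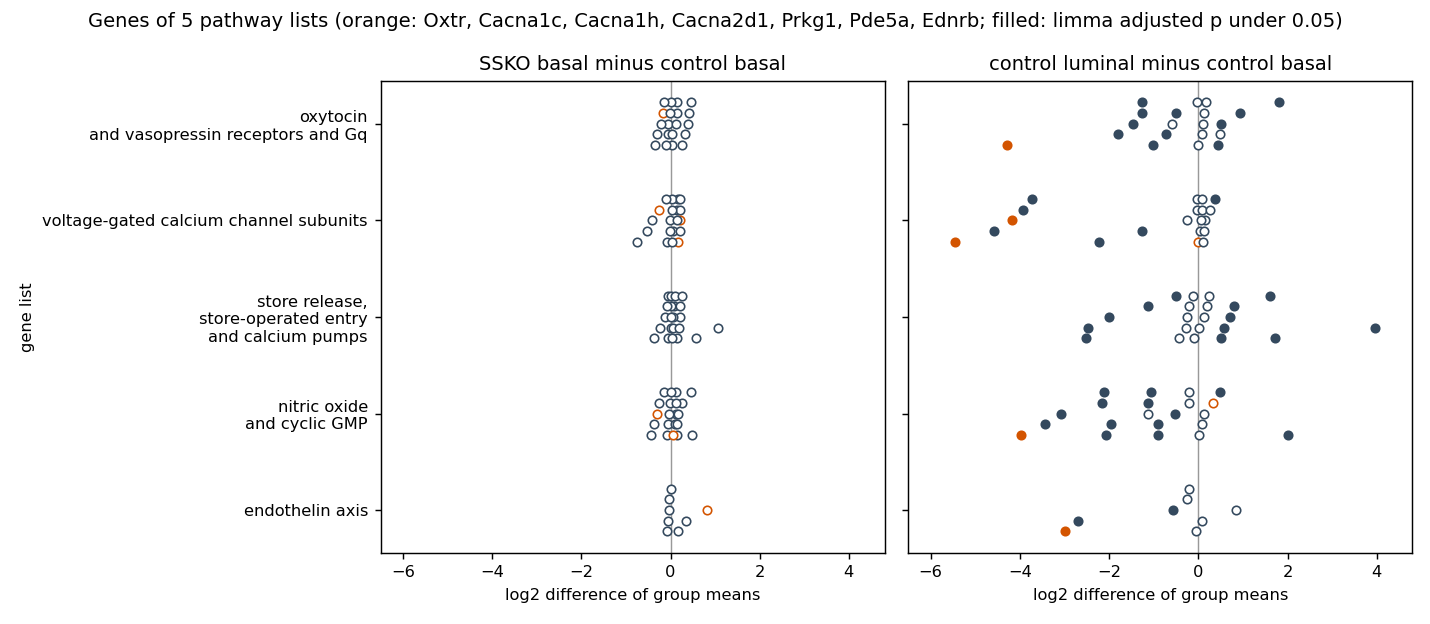
Every gene tested in the 5 pathway lists is 1 point at its log2 difference of group means, SSKO basal minus control basal on the left and control luminal minus control basal on the right, with filled points past a limma adjusted p under 0.05 and orange points for the 7 genes of the set. On the left no point is filled and Trpc6 lies farthest out at 1.07. On the right filled points run from -5.45 for Cacna2d1 to 3.97 for Trpc6.

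The genes whose profile over the 10 arrays was most like that of Oxtr were found by the root mean square difference between log2 values, each gene centred on its own mean. They were Col12a1 at 0.16, Chst15 at 0.24, Tgfb1i1 at 0.25, Sema5a at 0.25 and Grik3 at 0.26 log2 units. Luminal against control basal differences were -4.45 for Col12a1, -4.15 for Chst15, -4.34 for Tgfb1i1, -4.61 for Sema5a and -4.55 for Grik3. Col12a1, a fibril-associated collagen, read 6.45, 6.25 and 7.96 in luminal arrays 1 to 3. Like Oxtr, all 5 genes were higher in luminal array 3 than in the other luminal arrays, and lowest in array 1 within both SSKO and control basal groups. The profiles were matched on the same arrays, so this likeness is a description.

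**Figure D5:**
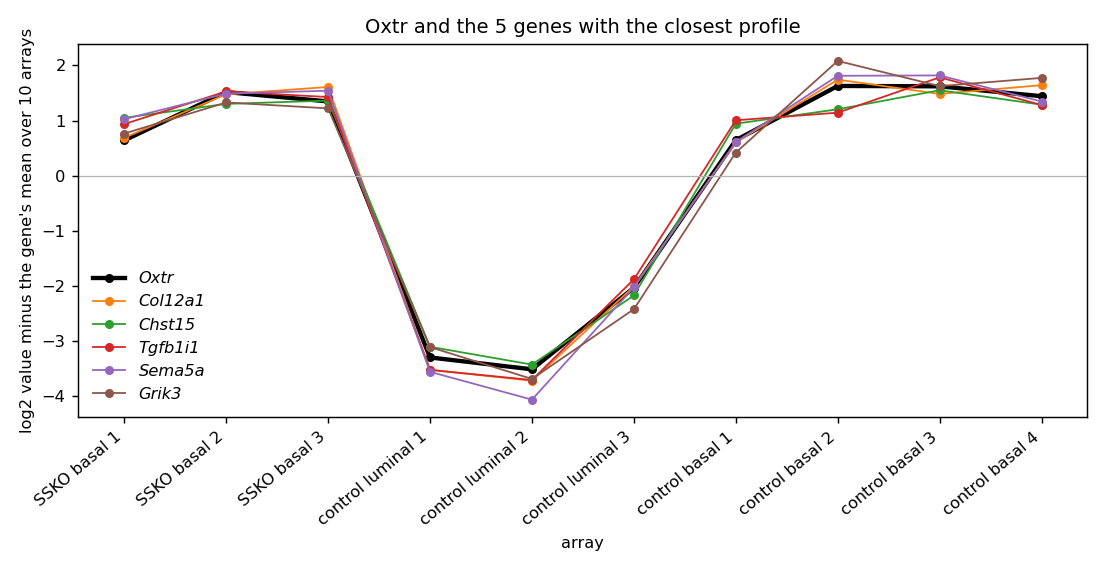
Log2 value minus the gene's own mean over 10 arrays (vertical axis) is drawn for each array (horizontal axis) for Oxtr in black and the 5 genes closest to it in colour. All 6 lines are above 0 in the SSKO basal and control basal arrays and below 0 in the luminal arrays, with luminal array 3 the highest of its group.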

How the data were processed

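Total RNA of 10 samples was hybridised to 1 Affymetrix array each, and the authors deposited a table with 1 linear intensity per probe set. PLIER 2.0 and Affymetrix Expression Console 1.1 are listed, with no roles, per the submitters' processing notes. The sources used here do not state any normalization between arrays. The table holds 28815 probe sets. The platform annotation gives 1 symbol to 21780, several to 1605 and none to 5430, and unnamed probe sets or those with several symbols were left out. Deposited intensities were analysed as log2(intensity + 16), a scale that understates the change of dim genes. The dimmest 25% of probe sets were dropped (21611 kept) and the brightest probe set stood for each gene, which left 15815 genes. Group means of all 10 arrays were fitted with limma 3.58.1 (lmFit, eBayes, R 4.3.3, 7 residual degrees of freedom), two-sided, with Benjamini-Hochberg adjustment over all genes and a threshold of 0.05. The script was tested on simulated data.

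The set and the gene lists were chosen with earlier results of these data known. Named pathway genes outside the set are up to 4 per list with the largest called luminal difference and the gene of smallest p in the SSKO comparison, and genes outside this rule are marked. A further list was read and is not reported here. Endothelial, pericyte, fibroblast, Schwann cell and melanocyte, immune and adipocyte marker lists were also read. Immune sums were 1627 to 1883 in SSKO basal, 1298 to 1452 in luminal and 1413 to 1916 in control basal arrays, and adipocyte sums 1719 to 5386, 1402 to 2292 and 1495 to 3464 in the same order. Alternatives changed the number added before taking logs, the scaling, the filter, the probe set rule, the model and the arrays used. Scan dates and batch labels were not part of the analysis. Matplotlib 3.10.9 (Python 3.11.15) was used for the figures.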

Additional observations from a re-analysis of the deposited data

Results flagged for a closer look

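Prkg2, a cyclic GMP-dependent kinase, read 6.77 in control basal array 2, against 7.54, 7.55 and 7.62 in control basal arrays 1, 3 and 4. That array lay far from the others relative to the range of its group. It was 1 of 39 groups of 4 arrays looked at, and chance alone gives about 1 in 20.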

How the results depend on the processing

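The counts of the 7 genes called (0 for SSKO basal minus control basal, 5 for luminal minus control basal and 5 for SSKO basal minus luminal) were the same under all 23 alternatives. Of 1385 values for 61 results, 1346 were scored as kept, 24 lost and 2 gained a call or count, and 13 changed sign. For a difference, kept means the same direction and side of the threshold. Counts that moved by a small factor were also scored as kept. Examples are 4, 5 or 7 genes called in SSKO basal minus control basal, against 6. Some genes, among them Cacna1h and Pygo2, had no value when 50% of probe sets were dropped.

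The number of genes called in SSKO basal minus control basal was 6 as reported and 3 after quantile normalization. It was 0 without the 3 basal arrays of high endothelial signal, where 214 genes had an unadjusted p under 0.05 in limma, and 1 to 27 when single arrays were left out (1 without SSKO basal array 3, 2 without control basal array 2 and 27 without SSKO basal array 2). Without the 3 arrays, 4031 genes were called in SSKO basal minus luminal, against 6682. Signs turned for differences that were not called. In SSKO basal minus control basal, Oxtr became 0.15 with the endothelial covariate and ranged from -0.40 to 0.10 when single arrays were left out. Pde5a became -0.11 and Ednrb -0.13 without the 3 arrays. With single arrays left out, Pde5a ranged from -0.10 to 0.16 and Cacna1c from -0.019 to 0.30. In luminal minus control basal, Cacna1h became 0.044 after quantile normalization, 0.033 after median centring and 0.046 with array weights, and ranged from -0.040 to 0.058 when single arrays were left out. The causes were not tested.

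The main fit did not pair samples by replicate number. Deviations of same-numbered SSKO and control basal arrays correlated at 0.635, 0.464 and 0.0473 for numbers 1 to 3. Differently numbered arrays of these groups correlated at -0.437 to 0.427, and numbers 1 and 2 stood above all of them. Deviations were taken from group means, so these correlations are not independent of each other. Array 1 had the highest endothelial marker mean in both groups, and its part in the correlation was not tested. Same-numbered luminal and control basal arrays correlated at -0.081, -0.0792 and -0.0604, and differently numbered ones at -0.31 to 0.394. Whether same-numbered basal arrays share a source was not tested. With the replicate block, in which control basal array 4 has no partner, 5 genes were called in SSKO basal minus control basal and the Oxtr difference was -0.13. The Ednrb difference was then 0.74 (SE 0.298, against 0.449 without the block) and was not called. Dim signals set the limit of depth, since luminal values of Cacna1c, Cacna2d1, Prkg1 and Ednrb averaged under 6.74.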
